A study of Mus musculus with 8 samples.

Results

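The globin genes were examined in the bulk RNA-seq of embryonic day 10.5 (E10.5) mouse ventricles: the embryonic beta-type genes Hbb-y and Hbb-bh1, the adult beta-type genes Hbb-bt and Hbb-bs, the embryonic alpha-type gene Hba-x, and the adult alpha-type genes Hba-a1 and Hba-a2. They were chosen by name, as 7 of the 55291 gene symbols in the deposited count table, and all 7 passed the filter of at least 8 counts in total. Poly(A) RNA came from ventricular tissue of 4 cKO samples, genotype Pkn2 fl/fl with the XMLC2-Cre transgene, and 4 control samples, Pkn2 fl/fl littermates without Cre. All embryos thus carried the floxed Pkn2 alleles, on a C57BL/6N background, and none received any agent. XMLC2-Cre recombines in cardiomyocytes, so that erythroid cells, the source of globin RNA, are not its target. How many hearts entered a library, and whether the chambers were rinsed of blood, is not given in the sources used here. The p-values therefore measure the spread between these samples.

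Hemoglobin is built of alpha-type and beta-type chains around heme. In the mouse, the first wave of red cells arises in the yolk sac and enters the heart with the circulation, and these primitive cells use Hbb-y (epsilon-y), Hbb-bh1 (beta-h1) and Hba-x (zeta) together with the adult alpha genes. Definitive red cells, which form later in the fetal liver, use Hba-a1, Hba-a2, Hbb-bs and Hbb-bt. The replacement of embryonic by adult chains is known as hemoglobin switching.

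Libraries held 47559845 to 56660938 counts. Pkn2 itself measured 81.2 ± 3.07 CPM (TMM-scaled counts relative to library size, mean ± SD, n = 4) in cKO, against 144 ± 9.85 CPM in control ventricles, with a log2 fold change of −0.83 (edgeR quasi-likelihood test, adjusted p = 7.67e-06). The defining cardiomyocyte genes were abundant throughout, with 15 marker genes summing to 40064 to 42085 CPM in cKO and 40795 to 44754 CPM in control libraries. Of the 26820 genes tested, 230 (0.858%) were called at an adjusted p of at most 0.05.

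The beta-type genes lie together on the minus strand of chromosome 7 (positions on GRCm38, as in the TPM table), with Hbb-y at chr7:103851749-103853216, Hbb-bh1 at chr7:103841637-103843164, Hbb-bs at chr7:103826534-103827928 and Hbb-bt at chr7:103812524-103813996. The alpha-type genes lie on the plus strand of chromosome 11, with Hba-x at chr11:32276400-32278116, Hba-a1 at chr11:32283511-32284465 and Hba-a2 at chr11:32296489-32297298. The adult genes of each cluster are near-identical copies, which bears on how their reads can be told apart. In the canonical transcripts of the GRCm39 annotation, the coding sequences of Hba-a1 and Hba-a2 (429 bases) and those of Hbb-bs and Hbb-bt (444 bases) were each 99.77% identical and differed at 1 base. The stretches around these bases, from the last coding exon, are shown because they are the whole coding difference within each pair. The differing base is in capitals. It is the substitution C381T from Hba-a1 to Hba-a2 and C417T from Hbb-bs to Hbb-bt, counted from 1 at the first base of the start codon. On GRCm39 the stretches are chr11:32234313-32234373 (Hba-a1, plus strand), chr11:32247130-32247190 (Hba-a2, plus strand), chr7:103475872-103475929 (Hbb-bs, minus strand) and chr7:103461863-103461920 (Hbb-bt, minus strand).
Hba-a1: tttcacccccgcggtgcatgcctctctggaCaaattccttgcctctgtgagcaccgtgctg
Hba-a2: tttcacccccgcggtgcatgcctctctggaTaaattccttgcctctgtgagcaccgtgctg
Hbb-bs: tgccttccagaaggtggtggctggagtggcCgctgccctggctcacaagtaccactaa
Hbb-bt: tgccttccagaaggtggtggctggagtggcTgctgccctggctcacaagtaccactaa

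Outside the coding sequence the copies differ more, and the whole transcripts were 87.53% identical for Hba-a1 and Hba-a2 and 86.12% for Hbb-bs and Hbb-bt. Of all stretches of 150 bases in the Hba-a1 transcript, 37.18% occurred in no other gene, against 27.91% for Hba-a2, 49.37% for Hbb-bt and 45.05% for Hbb-bs. For Hbb-y, Hbb-bh1 and Hba-x the share was 100% at both 100 and 150 bases. The embryonic genes are distinct sequences, with a coding identity of 76.35% between Hbb-y and Hbb-bh1, 74.1% between Hbb-y and Hbb-bt and 63.05% between Hba-x and Hba-a1. Reads of these lengths from the 3 embryonic transcripts are thus found in no other gene, whereas the split within each adult pair rests on part of each transcript. How the deposited tables treated reads that match both copies is not given in the sources used here.

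Globin RNA was a small and variable part of each library. The 7 genes took 0.357%, 0.137%, 0.281% and 0.475% of the counts in cKO libraries 1 to 4, and 0.242%, 0.150%, 0.461% and 0.162% in control libraries 1 to 4. The highest and the lowest library were both cKO (cKO 4 and cKO 2), and control 3 lay next to the top, so that the groups overlapped over nearly their whole range. Counting error was small beside this spread: the 95% exact binomial interval of the lowest share was 0.136% to 0.138%, which covers counting error only. In the deposited TPM (a relative abundance corrected for transcript length) the 7 genes made up 0.434% to 1.49% of each library. In bulk tissue, fewer erythroid cells and less globin RNA per cell cannot be told apart.

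Hbb-y, the epsilon-type embryonic chain, was the most abundant globin. Its level was 1317, 486, 1057 and 1836 CPM in cKO 1 to 4 and 941, 569, 1787 and 612 CPM in control 1 to 4. The values were high in cKO 4 and control 3 and low in cKO 2 and control 2, a 3.78-fold range within cKO and a 3.1-fold range within control. The log2 fold change was 0.26 (standard error 0.34, edgeR adjusted p = 0.83), and the 95% interval of the fold ran from 0.727 to 1.99. The sign rested on cKO 4, without which the log2 fold change was −0.03.

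Hbb-bh1, the other embryonic beta-type chain, was at 868, 357, 675 and 1112 CPM in cKO 1 to 4 and at 572, 356, 1034 and 422 CPM in control 1 to 4. Hba-x, the zeta-type embryonic alpha chain, was at 1171, 426, 861 and 1500.0 CPM in cKO 1 to 4 and at 761, 466, 1508 and 533 CPM in control 1 to 4. Both genes placed the libraries much as Hbb-y did, with cKO 4 and control 3 at the top, cKO 2, control 2 and control 4 at the bottom, and overlapping groups. Hbb-bh1 had a log2 fold change of 0.34 (standard error 0.30, edgeR adjusted p = 0.738). For Hba-x it was 0.28 (standard error 0.34, edgeR adjusted p = 0.814).

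Among the adult alpha genes, Hba-a1 was at 162, 61.5, 127 and 246 CPM in cKO 1 to 4 and at 109.7, 73.4, 213 and 70.5 CPM in control 1 to 4. Hba-a2, its near-identical neighbor, was at 52.2, 17, 27.4 and 46.8 CPM in cKO 1 to 4 and at 24.6, 14.9, 47.3 and 12.5 CPM in control 1 to 4. The order of libraries was again close to that of Hbb-y, except that cKO 1 had the highest Hba-a2 level and control 4 the lowest. The log2 fold change was 0.35 for Hba-a1 (standard error 0.35, edgeR adjusted p = 0.765) and 0.53 for Hba-a2 (standard error 0.35, edgeR adjusted p = 0.606). Summed before the fit, so that the division of counted reads between the copies does not matter, the pair had a log2 fold change of 0.39 (standard error 0.34, edgeR adjusted p = 0.735). The sum cannot make up for any reads left uncounted because they match both copies.

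The adult beta genes were the least abundant of the 7, with 150 to 830 counts of Hbb-bt and 155 to 780 counts of Hbb-bs per library. Hbb-bt was at 5.85, 3.12, 7.59 and 14.4 CPM in cKO 1 to 4 and at 7.48, 4.0, 14.7 and 4.55 CPM in control 1 to 4, again highest in control 3 and cKO 4. Hbb-bs behaved differently. It was at 3.87, 14.0, 16.2 and 4.5 CPM in cKO 1 to 4 and at 4.80, 3.21, 5.67 and 6.09 CPM in control 1 to 4. In these counts, the libraries cKO 2 and cKO 3 stood above all others, while cKO 1 and cKO 4 lay within the control range. In CPM, cKO 2 had the lowest level of Hbb-y, Hba-x, Hba-a1 and Hbb-bt of all libraries and the second highest level of Hbb-bs. In the deposited TPM, cKO 3 was again highest in Hbb-bs at 94.7, but cKO 2 (55.4) lay below control 3 (62.3) and cKO 4 (58.0).

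**Figure D1:**
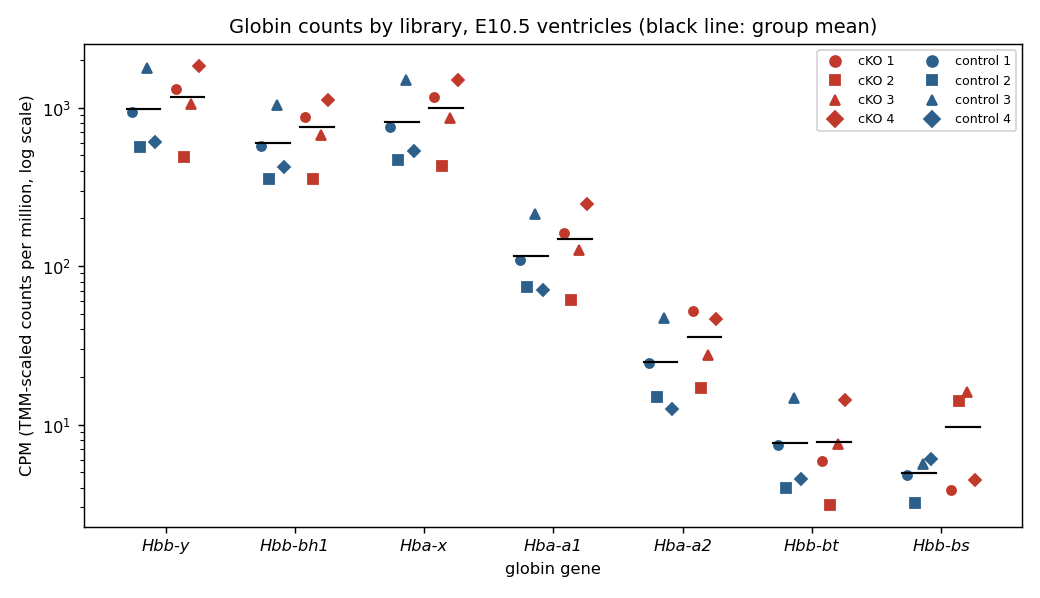
Level of each globin gene by library, in CPM on a log axis, with 1 point per library (blue control, red cKO, the marker shape giving the library number) and a black line at the group mean. The marker shapes keep much the same order from Hbb-y to Hbb-bt in both groups and change order at Hbb-bs, where cKO 2 and cKO 3 reach 14.0 and 16.2 CPM.

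Of the adult beta genes, Hbb-bt had a log2 fold change of 0.01 (standard error 0.40, edgeR adjusted p = 0.998), and its sign turned without cKO 4 (−0.47), control 1 (−0.0014), control 2 (−0.19) or control 4 (−0.17). Hbb-bs had a log2 fold change of 0.96 (standard error 0.36), with an unadjusted p of 0.0176 and an edgeR adjusted p of 0.258. The 95% interval of its fold, 1.14 to 3.31, is not adjusted for the number of genes tested. Without cKO 3 the log2 fold change was 0.59, and without cKO 2 it was 0.73. Summed with Hbb-bt it was 0.46 (standard error 0.26, edgeR adjusted p = 0.509). In the deposited TPM the log2 fold change of Hbb-bs alone was 0.56 (limma on log2(TPM + 1), standard error 0.40, unadjusted p = 0.201). In all, 0 of the 7 globins were called, where 0.858% of all genes were, and the CPM values of the groups overlapped for all 7. At an unadjusted p under 0.05 there was 1 of 7 (Hbb-bs), against 12.8% of all genes, and DESeq2 also called 0 of 7.

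These intervals leave room for differences of moderate size. The upper bound of the fold was 1.97 to 1.99 for the 3 embryonic genes, 2.12 for Hba-a1 and 2.42 for Hba-a2, and the lower bounds were 0.727 to 0.857 for these 5 genes. Within a group, the SD of log2 CPM was 0.79 for Hbb-y, 0.69 for Hbb-bh1, 0.77 for Hba-x and 0.79 for Hba-a1, where the median over the 4580 genes with a mean of at least 50 CPM was 0.08. Of those 4580 genes, 4 had a larger within-group SD than Hbb-y and 3 a larger one than Hba-a1. The edgeR standard errors were derived from the log2 fold change and the F statistic, and they borrow strength from other genes of like abundance. DESeq2 gave a wider standard error of 0.50 for Hbb-y at a log2 fold change of 0.27. With limma on log2(TPM + 1) it was 0.52 at 0.31. By these wider errors, differences larger than the bounds above are possible too.

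**Figure D2:**
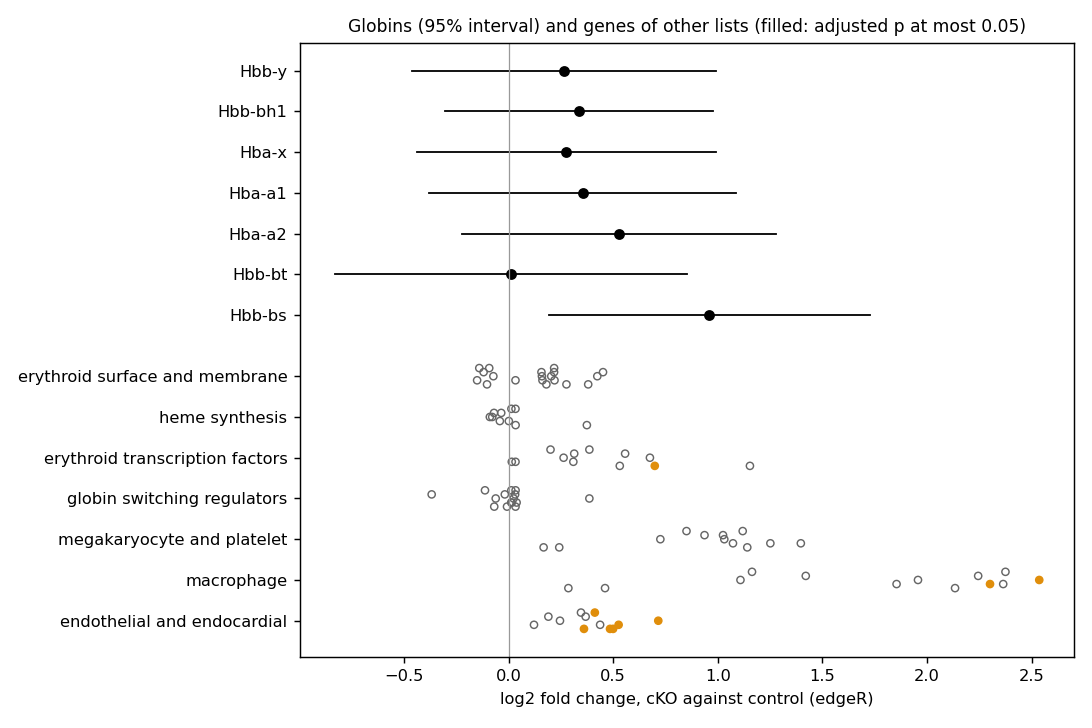
Log2 fold change of cKO against control from edgeR, with 95% intervals for the 7 globins (black) and 1 circle per gene for the lists of related genes and other cell types (filled orange where the adjusted p was at most 0.05). The intervals of 6 globins include 0 and that of Hbb-bs does not, although its adjusted p was 0.258, and filled circles appear in the rows of erythroid transcription factors, macrophage genes and endothelial genes.

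Across the 8 libraries, 6 of the globins moved together. For the 15 pairs without Hbb-bs, Pearson's r of log2 CPM was 0.77 to 0.997 and Spearman's rho 0.667 to 0.976, with exact permutation p adjusted over the 21 pairs of 0.000347 to 0.0407 for r and 0.00278 to 0.116 for rho (two-sided). The weakest of these pairs was Hbb-bt with Hba-a2, for which r fell to 0.578 without the 2 libraries farthest from the median of Hbb-bt (cKO 4 and control 3). All 6 pairs with Hbb-bs had r between −0.262 and −0.19 (adjusted exact permutation p 0.627 to 0.659). Within the groups the signs of Hbb-bs differed, at −0.895 to −0.483 in cKO and 0.288 to 0.539 in control, each over 4 libraries and given with no test. In log2 TPM the sign was the opposite, with r of 0.39 to 0.628 for the 6 pairs with Hbb-bs and 0.867 to 0.998 for the 15 others, so the negative sign belongs to the count table alone. The libraries share depth and tissue makeup, so these correlations describe how the genes vary together and nothing more.

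Among the tightest pairs in counts was Hbb-y with Hba-x, an epsilon-type and a zeta-type chain of the same primitive red cells (r = 0.997, rho = 0.976, adjusted exact permutation p = 0.000347 for r, and r = 0.996 without cKO 2 and cKO 4), and Hbb-bh1 with Hba-x had the same r. Hbb-bh1 made up 39.7%, 42.3%, 39.0% and 37.7% of the Hbb-y and Hbb-bh1 counts in cKO 1 to 4, and 37.8%, 38.5%, 36.7% and 40.9% in control 1 to 4. It was largest in cKO 2 and control 4 and smallest in control 3, with overlapping groups. The make-up of the embryonic pool thus varied far less than its amount, which differed 4.08-fold in counts between the extreme libraries.

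Levels of different genes were compared in the deposited TPM only, since these are scaled to transcript length. Hbb-y came first with a median of 2699 TPM over the 8 libraries (1362 to 5119), ahead of Hbb-bh1 with 1753 (1043 to 3212) and Hba-x with 1742 (943 to 3329). Hba-a1 followed with 860.5 (469 to 1667) and Hba-a2 with 804 (449 to 1470), and far below came Hbb-bs with 48.5 (26.7 to 94.7) and Hbb-bt with 41.5 (19.3 to 87.7). Hbb-y exceeded Hbb-bh1 in 8 of 8 libraries, by 1.31- to 1.66-fold, although their ranges overlapped. Hbb-bh1 and Hba-x could not be ordered, with Hbb-bh1 higher in 4 of 8 libraries. Nor could Hbb-bs and Hbb-bt, with Hbb-bs higher in 3 of 8. The widest step was from Hba-a2 to Hbb-bs, 8.12- to 36.1-fold within a library, and it was the only neighboring pair whose ranges did not overlap.

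**Figure D3:**
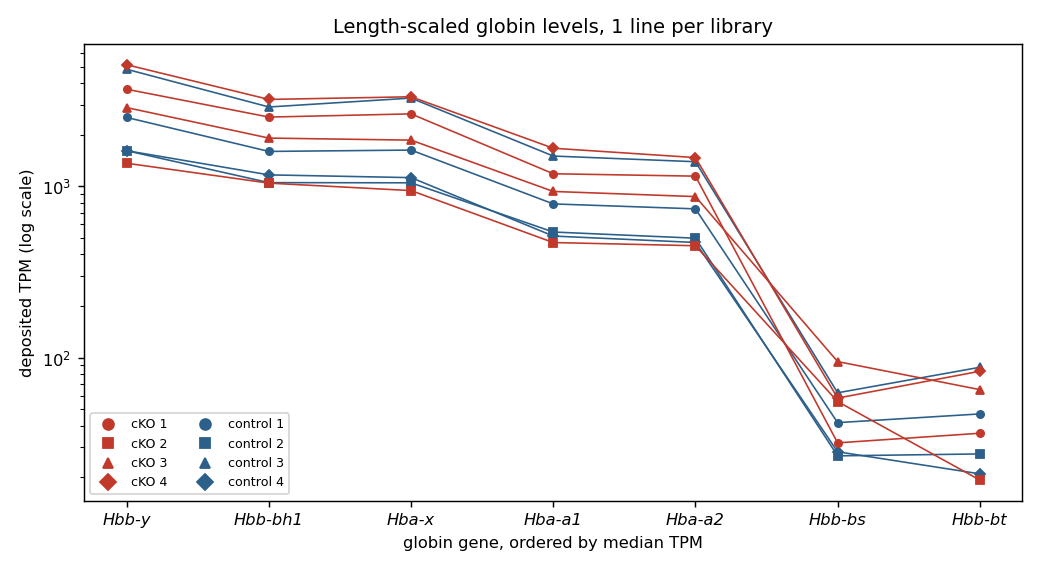
Deposited TPM of the 7 globin genes on a log axis, ordered by median, with 1 line per library (blue control, red cKO). The lines run nearly parallel from Hbb-y to Hba-a2, drop between Hba-a2 and Hbb-bs, and cross at Hbb-bs and Hbb-bt, where the line of cKO 2 falls from 55.4 to 19.3 TPM.

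Adult-type genes were a minority of globin RNA in every library. Their share of the 7 genes' counts was 6.26%, 7.01%, 6.42% and 6.55% in cKO 1 to 4 and 6.06%, 6.42%, 6.09% and 5.64% in control 1 to 4. The means were 6.56% ± 0.32 in cKO and 6.05% ± 0.32 in control (SD, n = 4), and the groups overlapped, as cKO 1 lay below control 2. In TPM the same share was 21.3% to 22.9% in cKO and 20.9% to 22.7% in control. Adult chains were unevenly spread over the clusters. On the alpha side Hba-a1 and Hba-a2 together made 46.6% to 49.8% of alpha-type TPM, and on the beta side Hbb-bs and Hbb-bt made 1.08% to 3.23% of beta-type TPM. In counts these shares were 13.5% to 16.3% and 0.443% to 2.0%.

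The 2 tables differed on how much adult alpha RNA there was. Hba-a1 made up 75.6% to 84.99% of the Hba-a1 and Hba-a2 counts but 50.8% to 53.1% of their TPM, in 8 of 8 libraries. The adult share of all globins was 6.31% in counts and 22.0% in TPM on average, and 0.644% in counts when both adult alpha genes were left out. Counts per TPM were 6.31 to 8.28 for Hba-a1 and 1.32 to 2.30 for Hba-a2, against 16.4 to 26.1 for the 3 embryonic genes. The cause of this gap was not tested. Alpha-type chains were 36.6% to 38.7% of globin counts and 42.5% to 44.2% of globin TPM, with cKO and control means of 37.5% and 37.4% in counts. The direction between groups of the adult share was the same in both tables, higher in cKO by 0.51 percentage points in counts and 0.41 in TPM, less than the range within either group.

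The balance of the adult beta copies varied widely between libraries. Hbb-bs made up 39.8%, 81.8%, 68.1% and 23.8% of the Hbb-bs and Hbb-bt counts in cKO 1 to 4, and 39.1%, 44.5%, 27.9% and 57.3% in control 1 to 4. The 95% exact binomial interval was 79.0% to 84.4% in cKO 2 and 21.3% to 26.5% in cKO 4, so counting error does not span the difference between these libraries. In TPM the shares were 46.8%, 74.2%, 59.3% and 41.1% in cKO 1 to 4 and 47.1%, 49.3%, 41.5% and 57.4% in control 1 to 4. Both tables thus put cKO 2 highest, cKO 3 second and cKO 4 lowest, while the TPM shares lay closer together. Relative to Hbb-y, the counts of Hbb-bs were highest in cKO 2 and lowest in cKO 4.

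**Figure D4:**
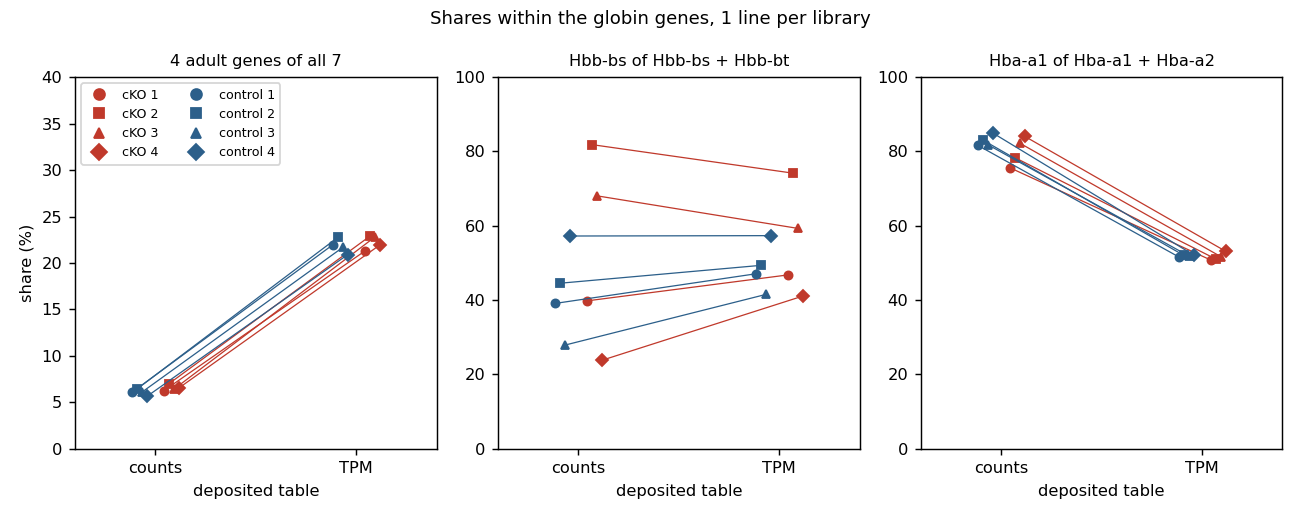
Shares within the globin genes in percent, from deposited counts (left of each panel) and deposited TPM (right), with 1 line per library (blue control, red cKO). The adult share is 5.64% to 7.01% in counts and 20.9% to 22.9% in TPM, the Hbb-bs share spreads from 23.8% to 81.8% in counts, and the Hba-a1 share falls from 75.6% to 84.99% in counts to between 50.8% and 53.1% in TPM.

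The promoters of the adult beta copies are much less alike than their coding sequences. RefSeq promoter sequences (GRCm38.p6) were found for 6 of the 7 genes, with Hbb-bh1 not matched. They are shown for Hbb-bs and Hbb-bt, and for Hbb-y, which Hbb-bt followed. Between Hbb-bs and Hbb-bt, r was −0.19 in log2 CPM and 0.628 in log2 TPM. The share of Hbb-bs in the pair ran from 23.8% to 81.8% in counts and from 41.1% to 74.2% in TPM. Any bearing of the promoters on these levels was not tested. Each sequence is the 120 bases before the RefSeq start, on the minus strand, at chr7:103827929-103828048 (Hbb-bs), chr7:103813924-103814043 (Hbb-bt) and chr7:103853208-103853327 (Hbb-y). Capitals mark matches on either strand to CACCC, found in binding sites of Krüppel-like factors, to CCAAT, found in those of CCAAT-binding factors, to GATA, found in those of GATA factors, and to TATAA, found in the TATA box.
Hbb-bs: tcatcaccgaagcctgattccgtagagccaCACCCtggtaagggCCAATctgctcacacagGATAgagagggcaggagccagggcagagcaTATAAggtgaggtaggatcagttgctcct
Hbb-bt: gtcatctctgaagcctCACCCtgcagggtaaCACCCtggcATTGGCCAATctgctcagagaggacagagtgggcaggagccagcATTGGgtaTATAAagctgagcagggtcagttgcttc
Hbb-y: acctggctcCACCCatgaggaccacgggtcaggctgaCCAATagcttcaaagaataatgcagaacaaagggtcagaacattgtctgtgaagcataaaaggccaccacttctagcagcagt

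Over 250 bases, the promoters of Hbb-bs and Hbb-bt were 68.36% identical with a longest shared run of 14 bases, whereas those of Hba-a1 and Hba-a2 shared a run of 247 bases. Within 250 bases the Hbb-bt promoter held 3 matches to CACCC and 3 to CCAAT, and the Hbb-bs promoter 1 of each. Hbb-y held no match to TATAA and Hba-x none to CCAAT, which says only that these letters are not in the window. Of 32851 promoters of the same length, 52% held CACCC, 33.8% CCAAT, 53.6% GATA and 22.8% TATAA on either strand. No binding was measured in these samples.

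The genes whose pattern was most like Hbb-y were other red cell genes. Among 14295 genes with a mean of at least 1 CPM, the 5 with the highest Pearson's r of log2 CPM over the 8 libraries were Ermap, an erythroid membrane protein (0.996), Epb42, protein 4.2 of the red cell membrane skeleton (0.989), Rhd, the Rh antigen (0.983), Slc4a1, the band 3 anion exchanger (0.980), and Alas2, the erythroid enzyme of the first step of heme synthesis (0.979). Slc4a1 was at 70.9, 28.1, 45.5 and 97.8 CPM in cKO 1 to 4 and at 45.3, 33.8, 94.3 and 34.7 CPM in control 1 to 4, high and low in the libraries where Hbb-y was. For Hbb-bt the nearest were Ccdc92b (0.974), Gm6451 (0.967), Pdzk1ip1 (0.950), Ermap (0.946) and Lnx2 (0.942). With 8 points and this many genes, high values of r arise readily, so these are given as a description.

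**Figure D5:**
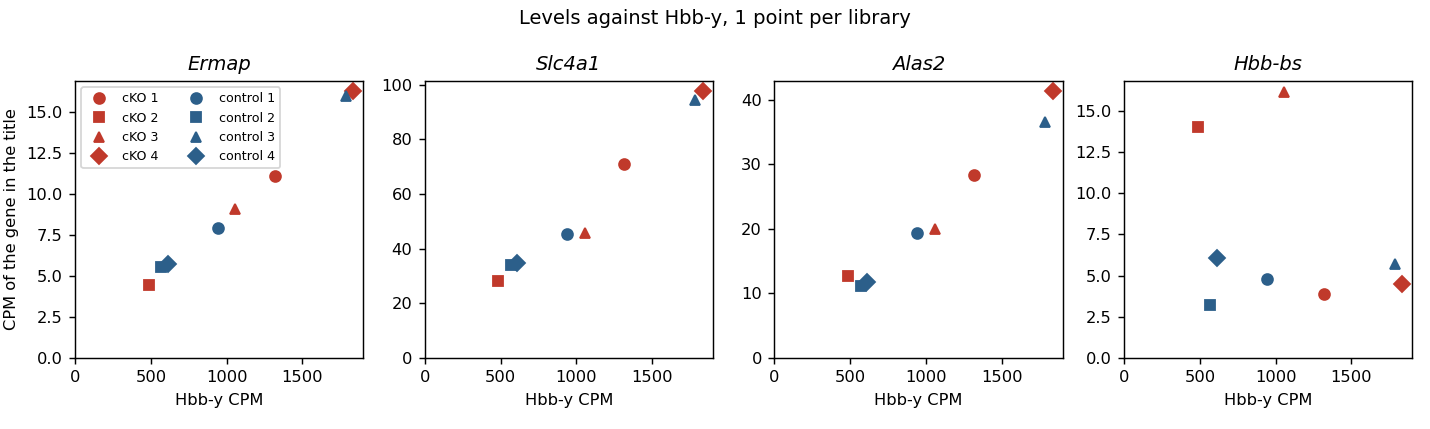
CPM of Ermap, Slc4a1, Alas2 and Hbb-bs (vertical, each on its own linear axis from 0) against CPM of Hbb-y (horizontal), with 1 point per library (blue control, red cKO). The erythroid genes rise with Hbb-y (r of log2 CPM 0.996, 0.980 and 0.979), and Hbb-bs does not in these counts (−0.246).

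The wider erythroid gene lists showed the same lack of a called group difference, apart from Lmo2. Of 20 genes of the erythroid surface and membrane, 19 were tested and 0 were called in either direction, where 0.515% of all genes were called higher and 0.343% lower. Their median log2 fold change was 0.16, against −0.00085 over all genes tested, and 14 had an r above 0.7 with Hbb-y. The 4 with the highest mean CPM, which is not scaled to length, Epb41 (protein 4.1), Sptb (beta-spectrin), Slc4a1 and Gypc (glycophorin C), had log2 fold changes of −0.14 to 0.22 (lowest adjusted p 0.663). Their summed level was 413 to 651 CPM in cKO and 443 to 636 CPM in control libraries. At an unadjusted p under 0.05 there were 3 of the 19 by edgeR (12.8% of all genes). They were Add2, Aqp1 and Cd59a, named after their values were seen.

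None of the 10 heme synthesis genes was called by edgeR (0.858% of all genes were), and 0 of them had an unadjusted p under 0.05 (12.8% of all genes). Their median log2 fold change was −0.02. Fech (ferrochelatase), Cpox (coproporphyrinogen oxidase) and Urod (uroporphyrinogen decarboxylase), enzymes of the pathway, had log2 fold changes of −0.09, 0.03 and 0.03. Alas2, which followed Hbb-y with r = 0.979, had a log2 fold change of 0.37 (standard error 0.34, edgeR adjusted p = 0.741). Among 13 tested genes of erythroid signalling, globin stability and iron uptake, 0 were called (0.858% of all genes were). At an unadjusted p under 0.05 there were 2 of the 13 by edgeR (12.8% of all genes). The 4 with the highest mean CPM, Tfrc (transferrin receptor), Slc25a37 (mitoferrin), Stat5b and Jak2, had log2 fold changes of 0.05 to 0.08. Slc25a37 followed Hbb-y closely (r = 0.975).

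Of 12 erythroid transcription factors, 1 was called (0.858% of all genes were), with 5 at an unadjusted p under 0.05 (12.8% of all genes). The log2 fold change was above 0 for 12 of 12, against 49.8% of all genes. The median log2 fold change of the list was 0.35, and its summed level was 315 to 401 CPM in cKO and 286 to 329 CPM in control libraries. Of the 12, 5 had an r above 0.7 with Hbb-y. Those with an unadjusted p under 0.05 were Lmo2, Gata2, Runx1, Zfpm1 and Tal1. Their r with Hbb-y was 0.264, 0.344, 0.256, 0.538 and 0.848 in that order. Gata2 and Runx1 were named after their values were seen. Gata2 was at 21.6 to 25.3 CPM in cKO and 18.0 to 21.4 CPM in control libraries (log2 fold change 0.31, edgeR adjusted p = 0.0794). Which cells gave these counts was not tested. Lmo2, a bridging protein of the GATA1-TAL1 complex that endothelial cells also express, was at 38.0, 26.2, 22.8 and 25.3 CPM in cKO 1 to 4 and at 16.5, 17.3, 18.3 and 17.2 CPM in control 1 to 4. Every cKO library was above every control library, a separation that 6.91% of all genes showed in either direction. The log2 fold change was 0.70 (standard error 0.12, edgeR adjusted p = 0.0131), and the r of Lmo2 with Hbb-y was 0.264. The call was lost without control 1 or control 4, where the highest adjusted p was 0.0673. The other factors with the highest mean CPM, Ldb1, Zfpm1 (FOG1) and Tal1, had log2 fold changes of 0.02 (adjusted p = 0.958), 0.20 (adjusted p = 0.284) and 0.26 (adjusted p = 0.332) in the same edgeR fit. Klf1, the erythroid Krüppel-like factor that activates adult beta-globin, measured 6.20 ± 1.69 CPM in cKO, against 6.05 ± 2.68 CPM in control ventricles (SD, n = 4, log2 fold change 0.03, edgeR adjusted p = 0.98), and followed Hbb-y with r = 0.968.

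Regulators of the embryonic-to-adult switch include genes that many cell types express. By edgeR 0 of 15 were called (0.858% of all genes were), with 1 at an unadjusted p under 0.05 (12.8% of all genes). That gene was Bcl11a, a repressor of embryonic and fetal globin genes, with 7.85 ± 1.23 CPM in cKO, against 10.1 ± 0.637 CPM in control ventricles (SD, n = 4, log2 fold change −0.37, edgeR adjusted p = 0.165). It was named after its value was seen. Those with the highest mean CPM, Chd4, Hmga2, Igf2bp1 and Igf2bp2, had log2 fold changes of −0.07 to 0.04, and the median of the list was 0.01. Their r with Hbb-y was −0.580 (Hmga2) to 0.0139 (Igf2bp2).

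Markers of other cell types moved with the groups to differing degrees, and their part in the globin values was not tested. Of 12 endothelial and endocardial genes, 6 were called higher in cKO (Pecam1, Cdh5, Tie1, Flt1, Emcn and Nfatc1), where 0.515% of all genes were. The log2 fold change was above 0 and the unadjusted p under 0.05 for 12 of 12, and the sum of the list was 1642 to 2044 CPM in cKO against 1286 to 1499 CPM in control libraries. Each of these 6 lost its call in 5 or 6 of the 8 fits with 1 library left out, among them those without cKO 1 or any 1 of the 4 control libraries, while the log2 fold changes in these 8 fits stayed at 0.39 to 0.58 for Pecam1, 0.43 to 0.62 for Cdh5, 0.34 to 0.49 for Tie1, 0.41 to 0.61 for Flt1, 0.59 to 0.83 for Emcn and 0.31 to 0.43 for Nfatc1. Of 13 macrophage genes, C1qb (log2 fold change 2.30, edgeR adjusted p = 0.0293) and C1qc (2.54, adjusted p = 0.0131) were called higher in cKO, where 0.515% of all genes were. Both were low, with means of 2.18 CPM in cKO and 0.444 CPM in control for C1qb, and 1.81 and 0.311 CPM for C1qc. The list summed to 54.0 to 85.3 CPM in cKO and 35.2 to 45.3 CPM in control. Of this, Lyz2 alone gave 28.1 to 45.9 CPM in cKO and 26.7 to 35.6 CPM in control. C1qb lost its call without cKO 1, cKO 4, control 1, control 3 or control 4, and C1qc without cKO 1, control 3 or control 4, with log2 fold changes over the 8 fits of 1.85 to 2.70 and 2.08 to 2.87. All 13 macrophage genes had a log2 fold change above 0 (49.8% of all genes did) and an unadjusted p under 0.05 (12.8% of all genes did). None of 12 megakaryocyte and platelet genes was called by edgeR (0.858% of all genes were). Still, 12 of 12 had a log2 fold change above 0, 10 had an unadjusted p under 0.05 (12.8% of all genes did) and their median log2 fold change was 1.03. Their summed level was 177 to 467 CPM in cKO and 136 to 255 CPM in control. Among members of these 3 lists the highest r with Hbb-y was 0.459 (Fcer1g).

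Liver and yolk sac genes were also examined, since fetal liver is where definitive red cells form. Of 15 genes, 12 were tested and 0 were called by edgeR (0.858% of all genes were), with 7 at an unadjusted p under 0.05 (12.8% of all genes). Of the 12, 11 had a log2 fold change below 0, with a median of −1.73, where 49.8% of all genes had one above 0. Apob, an apolipoprotein, was at 1.02 to 2.90 CPM in control and 0.0794 to 0.75 CPM in cKO libraries, and Ttr, transthyretin, at 0.664 to 3.01 CPM in control and 0.27 to 0.589 CPM in cKO. These groups did not overlap, a separation that 6.91% of all genes showed in either direction. Both genes were named after their values were seen. The sum of the list, to which Trf (transferrin) gave 11.6 to 18.1 CPM in each library, was 49.4 CPM in control 1 and 14.7 to 22.2 CPM in the other 7 libraries. Afp, alpha-fetoprotein, was at 15.9 CPM in control 1 and at most 2.24 CPM elsewhere, while Alb, the defining gene of hepatocytes, fell below 8 counts in total. The fibrinogen genes Fga, Fgb and Fgg had 0 counts in every cKO library. They were near the floor in control libraries too, at 0 to 0.462 CPM for Fga and Fgb and 0 to 0.296 CPM for Fgg. Control 1 had an adult globin share of 6.06%, within the range of the other control libraries (5.64% to 6.42%), and its Hbb-bt and Hbb-bs levels of 7.48 and 4.80 CPM were within the range of the other controls as well. The part of liver or yolk sac tissue in the globin values was not tested.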

How the data were processed

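Read counts were deposited as whole numbers for each gene symbol, not normalized by the authors, beside a deposited table of TPM scaled to transcript length, with 1 column per library. Per the labels, reads were 150 bp paired-end (the series text gives 100 bp), the nf-core/rnaseq workflow was run on GRCm39, and the tools named are FastQC, Trim Galore 0.6.7, HISAT2 2.2.1, StringTie 2.2.1, featureCounts and DESeq2. The gene positions in the TPM table are those of GRCm38. Strand setting and the treatment of multi-mapped reads are not given in the sources used here.

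Counts were tested with edgeR 4.0.16 (quasi-likelihood, TMM, condition alone, R 4.3.3) on the 26820 genes with at least 8 counts in total, with Benjamini-Hochberg adjustment and calls at an adjusted p of at most 0.05. CPM are TMM-scaled, and log2 CPM used a prior count of 2. Libraries held 47559845 to 56660938 counts, so the spread between libraries, not counting error, limits these genes. Shares were taken within a library, with 95% exact (Clopper-Pearson) binomial intervals that cover counting error only. Correlations used all pairings of the 8 libraries (smallest p 2.48e-05). Groups came from the sample labels. No column was left out.

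The members and the gene lists were chosen with earlier results of these data known. Named genes were the 7 globins, other globin family rows, Pkn2, the called and the 4 most abundant genes of each of the 10 lists, and the 5 genes most like Hbb-y and Hbb-bt. Ahsp was not analysed here, and the values of 1 gene under this rule are not reported here. Coding sequences were read from GRCm39 with the GENCODE annotation and promoters from RefSeq (GRCm38.p6). Alternatives were DESeq2 1.42.0, limma-voom (limma 3.58.1), DESeq2 size factors, other filters, the replicate number as a block, limma on log2 TPM after adding 1 or 0.1, globin rows left out of library sizes, near-identical copies summed or left out, and each library left out in turn. Library pairs of a group differed by more than counting error (chi-square per degree of freedom 12.0 to 39.1). The scripts were tested on simulated data. A Dixon test for 1 library apart from the other 3 of its group, over 56 gene-group or share-group sets, marked none.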

Additional observations from a re-analysis of the deposited data

How the results depend on the processing

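The count of genes called over the whole table, 230, was 867 with DESeq2, 878 with no filter on low counts, 380 with the replicate number as a block, 0 with limma on log2(TPM + 1), where 3023 genes had an unadjusted p under 0.05, and 1 with limma on log2(TPM + 0.1). With single libraries left out it ran from 67 (without control 1) to 744 (without cKO 3). In 56 fits with 1 library left out 0 globins were called, as in the fit to all libraries, although their fold changes moved, with a lowest adjusted p of 0.113, and in the 67 other alternative fits 1 was, Hbb-bs with no filter on low counts (log2 fold change 0.97, adjusted p = 0.0216). Its adjusted p over the remaining alternatives was 0.113 or higher.

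Hbb-bt, whose log2 fold change was 0.01, changed sign with limma-voom (−0.0044), with the replicate block (−0.0226) and with libraries left out, where it ran from −0.47 to 0.53. For Hbb-y the range with libraries left out was −0.028 to 0.73, with the lowest value without cKO 4 and the highest without control 3. It was 0.10 to 0.74 for Hbb-bh1, 0.01 to 0.75 for Hba-x, 0.0075 to 0.82 for Hba-a1, 0.29 to 1.05 for Hba-a2 and 0.59 to 1.23 for Hbb-bs. The cause of these changes was not tested.

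The globin share averaged 0.283% of counts and 0.879% of TPM. The adult share was 6.31% of globin counts, 22.0% of globin TPM, and 0.644% of counts without Hba-a1 and Hba-a2. The alpha-type share was 37.5%, 43.2% and 33.7% in the same order. Of 170 alternative values in all, 146 were taken as unchanged. A fold change had to keep its direction and side of the threshold, and a share to move by less than the spread between replicates. The count of called genes had to stay within 1.5-fold of 230.

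Replicate numbers were not taken as pairs: deviations from the group means correlated at −0.30 to 0.045 where a cKO and a control library shared a number, and 0 of 8 libraries correlated best with its own number. The replicate block left all 7 globins uncalled, with a log2 fold change of 0.26 for Hbb-y and 0.74 for Hbb-bs. Precision is limited by the spread of globin RNA between libraries. The edgeR standard error was 0.35 for Hba-a1 and for Hba-a2, and 0.34 for their sum. It was 0.36 for Hbb-bs and 0.40 for Hbb-bt, and 0.26 for their sum. The part of shared sequence in the precision of the adult pairs was not tested.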

Other observations

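Other rows of the alpha and beta globin clusters had few counts. Hbb-bh2 had 7, 8, 8 and 8 counts in cKO 1 to 4 and 0, 1, 6 and 0 counts in control 1 to 4 (edgeR adjusted p = 0.339), so its groups did not overlap, as was so for 6.91% of all genes tested. Hbb-bh0 had 56 counts in total (edgeR adjusted p = 0.606) and Hbq1b, a theta-type alpha gene, 227 (edgeR adjusted p = 0.969). Hbb-bh3, Hbq1a and the pseudogene Hba-ps3 had 0 counts in 8 of 8 libraries, and the pseudogene Hba-ps4 had 42 in total. Among globins that do not belong to red cells, Mb (myoglobin) measured 27.3 ± 9.26 CPM in cKO, against 23.3 ± 2.30 CPM in control ventricles (SD, n = 4, edgeR adjusted p = 0.634). Cygb (cytoglobin) and Ngb (neuroglobin) had 192 and 99 counts in total. The log2 fold change was −0.71 for Cygb (edgeR adjusted p = 0.519) and 1.22 for Ngb (edgeR adjusted p = 0.257).

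Since Hbb-bs did not follow the other globins in counts, the genes most like it over the 8 libraries were looked up after its values were seen. The 5 with the highest Pearson's r of log2 CPM were Wdr70 (0.957), Plekhb1 (0.955), Gm14399 (0.951), Mis12 (0.943) and Gm18194 (0.923), none of them in the erythroid lists. Wdr70 was at 33.7 CPM in cKO 2 and cKO 3 and at 28.9 to 31.7 CPM in the other 6 libraries. Mis12, a kinetochore gene, was at 51.2 and 52.1 CPM in cKO 2 and cKO 3 and at 42.3 to 48.2 CPM in the others. With 8 points and 14295 genes such values of r arise readily, and they are given as a description.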
